A study of Mus musculus with 24 samples.

Results

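Neural differentiation was followed here in mouse cells labelled as Htt knockout, by setting 2 libraries of neural progenitor cells (NPC) against 2 libraries of embryonic stem cells (mESC) of the same genotype. These 4 libraries were chosen by genotype and cell type and not by any measured value, from a series of 24 total-RNA sequencing libraries. The series holds 6 genotypes, each as mESC and as NPC with 2 libraries: 4 lines heterozygous for a knock-in of CAG repeats in the mouse gene (titled Q20, Q50, Q92 and Q111), and the wild type (WT) and knockout (KO) of Htt. The growth protocol gives the line titled Q92 a slightly lower number of repeats than its title, and the title is used here. WT and the knock-in lines enter below only where the KO change is set against theirs.

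All mESC were grown with leukemia inhibitory factor (LIF) and serum, on gelatin with a layer of irradiated CF-1 mouse embryonic fibroblasts. To make NPC, mESC were held for 7 days in N2B27, a serum-free medium, and were then replated on laminin and expanded with FGF and EGF. The sources used here describe neither the origin of the WT and KO lines nor the KO allele, and they do not say whether the KO line is 1 clone. The study calls both libraries of a group biological samples, and nothing says how separate their cultures were, so p-values measure the spread between these libraries only. Cell type goes together with culture medium, substrate and feeder cells, and mESC and NPC values come from separate tables, so that these cannot be told apart in any change below.

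Huntingtin, the product of Htt, is a large scaffold protein that binds vesicle, cytoskeletal and transcription factors and whose expanded polyglutamine tract causes Huntington disease. Pluripotent cells are held by a network around Oct4 (Pou5f1), Nanog and Sox2. On losing LIF and serum they leave this state, and with FGF and EGF they can be expanded as adherent neural stem cells that resemble radial glia and carry Nestin, Fabp7 and Olig2.

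Levels are in CPM, the usual unit of reads relative to the library total, with library sizes normalised over the 4 KO libraries, given in the order of replicate 1 and replicate 2. A change is the mean log2(CPM + 1) of NPC minus that of mESC with its standard error (SE), which understates the change of low genes. A gene was called where the Benjamini-Hochberg adjusted p of limma was under 0.05 over all genes tested. Htt itself (ENSMUSG00000029104, chromosome 5, 34761740 to 34912534, plus strand, GRCm38) was read first as a check of the labels, and its level was 133 and 64.7 CPM in KO mESC and 96.3 and 92.6 CPM in KO NPC. The change was 0.03 ± 0.40 (adjusted p = 0.967). With WT on the same scale, Htt was at 133 and 65.1 CPM in KO mESC against 122 and 108 in WT mESC, and at 96.8 and 93.1 in KO NPC against 138 and 173 in WT NPC. The library labelled KO mESC 1 was thus above both WT mESC libraries, while both KO NPC libraries were below both WT NPC libraries. Without the library labelled KO mESC 2 the Htt change was -0.49, and without the library labelled KO mESC 1 it was 0.54. These are counts over the whole gene, so reads of a transcript from which part is missing count in full, and the labels were not checked by them.

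The 4 KO libraries held 73413219 to 118038952 recovered reads, and all 24 held 48525333 to 118038952. Of 15572 genes in both tables, 12989 reached 1 CPM in at least 2 KO libraries and were tested. The tables list different genes: 1929 were in the mESC table alone, where 62 averaged at least 20 CPM in KO mESC, and 452 in the NPC table alone, where 19 did so in KO NPC. Genes with few exons were less reproducible. Among genes of at least 10 CPM in 1 library, 23.8% of those with 1 or 2 exons differed by over 2 log2 units between both KO mESC libraries, against 1.66% of those with 3 or more exons, and in KO NPC the shares were 18.8% and 1.22%. Some such genes are listed at 0 in 1 library of a pair, so that a 0 is given below only as listed. A gene under 1 CPM in all libraries of 1 cell type could enter the test only through the other, so the counts of list members that passed are descriptions and support nothing by themselves.

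Differentiation moved a large part of the transcriptome of the KO cells. Of 12989 genes, 4425 were called (34.1%), with 2426 higher in NPC (18.7%) and 1999 lower (15.4%). These shares over all genes tested are the background for the counts of each list below. At least 2-fold changes made up 2375 of the rises (18.3% of genes tested) and 1935 of the falls (14.9%). The libraries of both cell types did not overlap for 9118 genes (70.2%). The change had an SD of 1.68 over genes, while the log2 difference between replicates had an SD of 0.77 in mESC and 0.66 in NPC. Across genes, Pearson's r of log2(CPM + 1) was 0.944 within KO mESC and 0.960 within KO NPC, and 0.674 to 0.741 between cell types (12989 genes, which are not independent). The median change over genes was 0.06 log2, and 0.03 with median-of-ratios scaling. Both scalings set the bulk of genes near no change, so every change below is relative to that bulk. Counts depended on having both libraries: without the library labelled KO mESC 1 there were 1571 rises and 595 falls, without KO mESC 2 there were 1124 and 457, without KO NPC 1 there were 974 and 1038, and without KO NPC 2 there were 1227 and 1412. In each of these fits the lone library was taken to vary like the other cell type. In data simulated on these libraries, 66, 66 and 65 tested genes were changed 2-fold, 4-fold and 8-fold, far fewer than were called here. The test recovered 0% of the 2-fold, 21.2% of the 4-fold and 72.3% of the 8-fold changes. Recovery depends on how many genes change, so these shares do not carry over to the real data. A gene below that was not called may still differ.

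**Figure D1:**
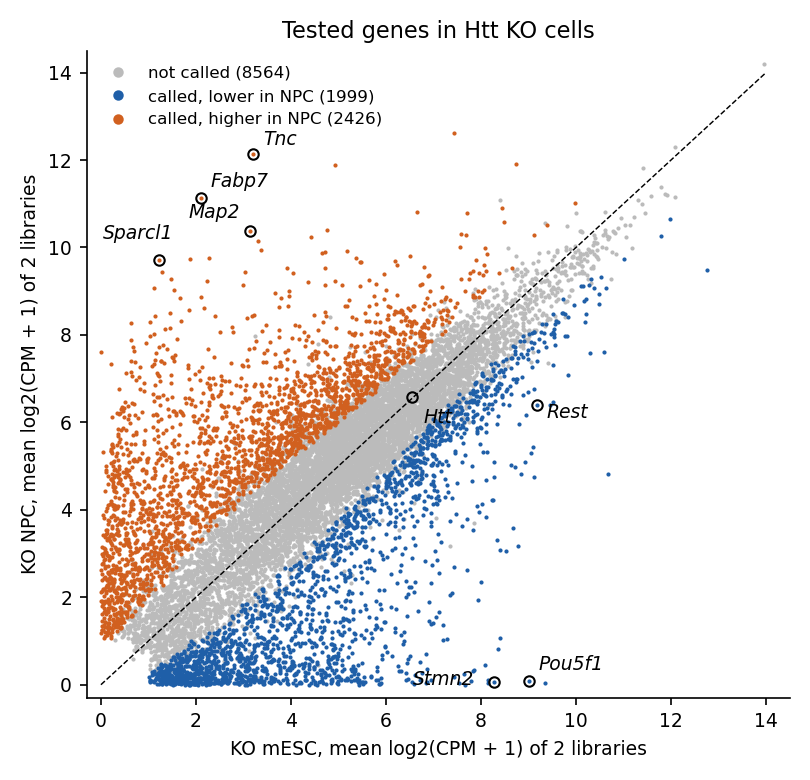
Mean log2(CPM + 1) of each of 12989 genes in KO mESC (horizontal) and KO NPC (vertical), with 2426 genes called higher and 1999 called lower in NPC in colour and the dashed line marking equal levels. Pou5f1 and Stmn2 lie along the mESC axis, and Tnc and Fabp7 lie high on the NPC axis.

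Genes of the pluripotency network fell. Among 35 genes of this list 24 could be tested, and 24 fell, with a median change of -5.33 against 0.06 over all genes. The most strongly changed member was Tdgf1, a Nodal co-receptor of the cell surface, at 1189 and 353 CPM in KO mESC and 0.0474 and 0 CPM in KO NPC, a change of -9.31 ± 0.60 (adjusted p = 0.000573). Pou5f1 (chromosome 17, 35506018 to 35510772, plus strand), the factor without which pluripotency is lost, was at 344 and 768 CPM in KO mESC and 0.0569 and 0.0603 CPM in KO NPC (change -8.93 ± 0.47, adjusted p = 0.000573). For both genes every mESC library was at or above 344 CPM and every NPC library was at or below 0.0603 CPM, although the mESC libraries differed from each other and in opposite order.

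Nanog, a second core factor, was at 267 and 398 CPM in KO mESC and 0.939 and 0.577 CPM in KO NPC (change -7.55 ± 0.39, adjusted p = 0.000573). Sall4, a zinc finger factor of the same network, was at 131 and 311 CPM in KO mESC and is listed at 0 in both KO NPC libraries. Some members kept a measurable level in NPC. Klf4 was at 48.0 and 109 CPM in KO mESC and 14.4 and 5.77 CPM in KO NPC, Nr5a2 at 57.4 and 63.3 CPM in KO mESC and 6.04 and 6.54 CPM in KO NPC, and Mybl2, a factor of proliferating cells, at 410.2 and 505 CPM in KO mESC and 14.9 and 48.6 CPM in KO NPC. Klf4 had the smallest change of the tested members, -2.85 ± 0.57. The 11 untested members include Sox2, which neither table lists, and 10 that only the mESC table lists. Of these, Zfp42 (Rex1), a classic marker of naive cells, was at 347 and 544 CPM in KO mESC, Dppa5a at 731 and 568, L1td1 at 363 and 1006 and Fgf4, the autocrine signal that readies mESC for differentiation, at 341 and 91.1. These genes have no NPC value here and no change is given.

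Of the 24 tested pluripotency genes 18 were higher in KO mESC 2 than in the library labelled KO mESC 1, against 6085 of 12989 genes. Falls numbered 10 without the library labelled KO mESC 1, 7 without KO mESC 2, and 24 without either NPC library. The promoter of Zfp42 is shown because the octamer bound by Oct4-type factors lies in it. The window holds 250 bases before and 50 after the RefSeq start (GRCm38.p6, chr8:43306960-43307259, minus strand, printed along the gene), and capitals mark ATTTGCAT, searched on both strands, which 1.29% of 13085 such windows of tested genes hold.
Zfp42: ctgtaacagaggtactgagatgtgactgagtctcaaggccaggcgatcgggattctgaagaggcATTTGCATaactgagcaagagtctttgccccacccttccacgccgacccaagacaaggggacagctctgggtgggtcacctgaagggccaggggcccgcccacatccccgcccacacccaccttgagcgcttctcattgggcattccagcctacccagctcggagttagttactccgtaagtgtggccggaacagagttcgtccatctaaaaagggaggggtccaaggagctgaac
None of 20 windows of the tested pluripotency genes holds these letters in that stretch. A match describes letters only.

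Genes of early lineages differed in level and direction. Of 20 such genes 9 were tested, 4 fell, 1 rose and 4 did not pass. Dnmt3b, the DNA methyltransferase of the early epiblast, was at 154 and 189 CPM in KO mESC and 4.67 and 6.26 CPM in KO NPC (change -4.74 ± 0.35, adjusted p = 0.000600). Bmp4, which is made by mESC and opposes neural fate, was at 20.7 and 85.2 CPM in KO mESC and 0.0569 and 0.0947 CPM in KO NPC (change -5.33 ± 0.66, adjusted p = 0.00204). Eomes, of mesendoderm and trophoblast, was at 4.44 and 8.94 CPM in KO mESC and 0 and 0.0603 CPM in KO NPC, and Gata6, of primitive endoderm, at 2.69 and 2.63 CPM in mESC and listed at 0 in both NPC libraries. Brachyury (T), Foxa2 and Mixl1 stayed at or below 0.618 CPM in every KO library where they are listed. The gene that rose, Pdgfra, marks oligodendrocyte precursors as well as primitive endoderm and was at 9.28 and 7.29 CPM in KO mESC and 97.9 and 59.1 CPM in KO NPC. The falls numbered 1 without either mESC library, 4 without KO NPC 1 and 5 without KO NPC 2.

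The neural progenitor programme rose. Of 30 genes 26 were tested, 21 rose and none fell, with a median change of 5.11. Fabp7 (ENSMUSG00000019874, chromosome 10, 57784881 to 57788450, plus strand), a fatty acid binding protein of radial glia, had the largest rise of any gene named by size. Its level was 17.7 and 0 CPM in KO mESC and 3245 and 1532 CPM in KO NPC (change 9.01 ± 1.25, adjusted p = 0.00308). The value listed at 0 in KO mESC 2 stands beside 17.7 CPM in the library labelled KO mESC 1, and the call was not made by edgeR (adjusted p = 0.0503) or DESeq2 (adjusted p = 0.0577). Tnc (chromosome 4, 63959785 to 64047015, minus strand) encodes tenascin C, a matrix protein of the neural stem cell niche, and was at 13.3 and 4.97 CPM in KO mESC and 5413 and 3806 CPM in KO NPC, a ratio of means of 504 (change 8.94 ± 0.46, adjusted p = 0.000573). Both genes were picked among genes whose cell types did not overlap, so that separation was fixed by the choice.

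The promoters of Fabp7 and Tnc follow, as those of the genes with the most extreme rises. Capitals in Fabp7 (chr10:57784673-57784972, plus strand) mark the letters CCAAT on either strand, held by 37.6% of all windows, by 34.8% of windows of genes that rose and by 17 of 28 windows of the tested progenitor genes.
Fabp7: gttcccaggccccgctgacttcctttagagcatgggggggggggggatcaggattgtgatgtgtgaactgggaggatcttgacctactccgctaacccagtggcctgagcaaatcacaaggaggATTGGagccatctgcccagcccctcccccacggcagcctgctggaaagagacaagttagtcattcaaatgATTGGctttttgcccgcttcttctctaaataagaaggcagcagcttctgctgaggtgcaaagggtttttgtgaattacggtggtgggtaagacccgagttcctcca
Capitals in Tnc (chr4:64046966-64047265, minus strand, the outer of 2 RefSeq starts) mark TATAAA, held by 6.79% of all windows, 7.01% of windows of genes that rose and 6 of 28 progenitor windows, and then the octamer on the reverse strand, held by 1.29%, 1.61% and 3 of 28.
Tnc: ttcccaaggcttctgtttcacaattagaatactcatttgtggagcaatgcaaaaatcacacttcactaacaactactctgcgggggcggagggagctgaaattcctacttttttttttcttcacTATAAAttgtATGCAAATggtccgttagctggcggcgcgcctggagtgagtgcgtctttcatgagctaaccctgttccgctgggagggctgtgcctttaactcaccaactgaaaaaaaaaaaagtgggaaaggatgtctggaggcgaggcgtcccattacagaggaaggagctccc
These marked motifs do not overlap, and the letters were matched without any measure of binding.

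Bcan and Ncan, the brain lectican proteoglycans, also rose. Bcan was at 3.73 and 0.263 CPM in KO mESC and 960.3 and 507 CPM in KO NPC (change 8.16 ± 0.67, adjusted p = 0.000670). Ptprz1, a receptor phosphatase of radial glia, was at 7.08 and 1.92 CPM in KO mESC and 1194 and 628 CPM in KO NPC (change 7.48 ± 0.57). The astroglial glutamate transporter Slc1a3 was at 39.7 and 17.1 CPM in KO mESC and 1773 and 1021 CPM in KO NPC (change 5.63 ± 0.47, adjusted p = 0.000693). These genes share a pattern in which replicate 1 is the higher library of both cell types.

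Nestin (Nes), the intermediate filament of neural stem cells, was at 9.63 and 24.6 CPM in KO mESC and 497 and 927 CPM in KO NPC (change 5.37 ± 0.51, adjusted p = 0.000914). Vimentin (Vim), a second filament, was at 71.0 and 138 CPM in KO mESC and 1840.3 and 1779.8 CPM in KO NPC (change 4.18 ± 0.37, adjusted p = 0.000776). N-cadherin (Cdh2), which replaces E-cadherin in neural epithelium, was at 3.07 and 4.55 CPM in KO mESC and 176 and 238 CPM in KO NPC (change 5.44 ± 0.37, adjusted p = 0.000573). These 3 were higher in replicate 2 than in replicate 1 in mESC.

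Among transcription factors, Olig2, which marks ventral and expanded neural stem cells, was at 2.38 and 0.100 CPM in KO mESC and 319.7 and 156 CPM in KO NPC (change 6.86 ± 0.64, adjusted p = 0.000878). Sox9 was at 0.210 and 0.113 CPM in KO mESC and 44.1 and 35.8 CPM in KO NPC (change 5.13 ± 0.36), and the gliogenic factor Nfia at 1.67 and 0.326 CPM in KO mESC and 127 and 109.7 CPM in KO NPC (change 5.98 ± 0.46). Pax6, of dorsal radial glia, rose less, from 6.40 and 15.0 to 44.1 and 34.9 CPM (change 1.89 ± 0.48, adjusted p = 0.0261), and was not called without the library labelled KO mESC 1 (adjusted p = 0.0803), without KO NPC 1 (0.139) or without KO NPC 2 (0.0621). Egfr, the receptor of the EGF in the medium, was at 9.64 and 5.28 CPM in KO mESC and 1012 and 473 CPM in KO NPC (change 6.40 ± 0.47).

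The 5 progenitor genes that did not pass were Sox1, Msi1, Prom1, Zbtb20 and Hopx. Sox1, the earliest neural plate marker, was at 20.9 and 0 CPM in KO mESC and 14.4 and 7.25 CPM in KO NPC, with the second mESC library listed at 0 (change 1.27 ± 1.32). Hopx was the only tested member with a negative value, at 5.12 and 14.49 CPM in KO mESC and 2.13 and 2.94 CPM in KO NPC (change -1.47 ± 0.52, adjusted p = 0.0715). Sox3 and Lmo3, listed for NPC alone, were at 37.2 and 5.36 CPM and 26.4 and 23.2 CPM in KO NPC, and Nr2e1 (Tlx) at 0.123 and 0.129.

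Of the 26 progenitor genes 21 were higher in the library labelled KO mESC 1 than in KO mESC 2, against 6899 of 12989 genes, and 21 were higher in KO NPC 1 than in KO NPC 2, against 6316. Several members were far apart between both mESC libraries, with Fabp7 and Sox1 listed at 0 in KO mESC 2 and Ednrb at 4.90 and 0.301 CPM. What part these unlike mESC libraries have in the progenitor changes was not tested beyond the counts without each library, which were 21 rises without the library labelled KO mESC 1, 19 without KO mESC 2, 17 without KO NPC 1 and 18 without KO NPC 2. With only members of 3 or more exons, 18 of 22 rose, and of 4 with 1 or 2 exons, 3 rose.

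Other genes of the largest changes lay outside the lists. Astn1, an adhesion protein of neurons moving along glia, was at 2.40 and 0.401 CPM in KO mESC and 671 and 431 CPM in KO NPC (change 7.95 ± 0.51, adjusted p = 0.000573). Spon1 (F-spondin), a floor plate matrix protein, was at 4.40 and 1.48 CPM in KO mESC and 999 and 717 CPM in KO NPC (change 7.86 ± 0.45, adjusted p = 0.000573). Zfp990, a zinc finger gene with close copies in the genome whose reads may be shared, was among the largest falls, at 263 and 184 CPM in KO mESC and 0.0664 and 0.0517 CPM in KO NPC (change -7.71 ± 0.39, adjusted p = 0.000573). These genes were picked for large changes among called genes whose cell types did not overlap, so nothing is read from that separation.

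**Figure D2:**
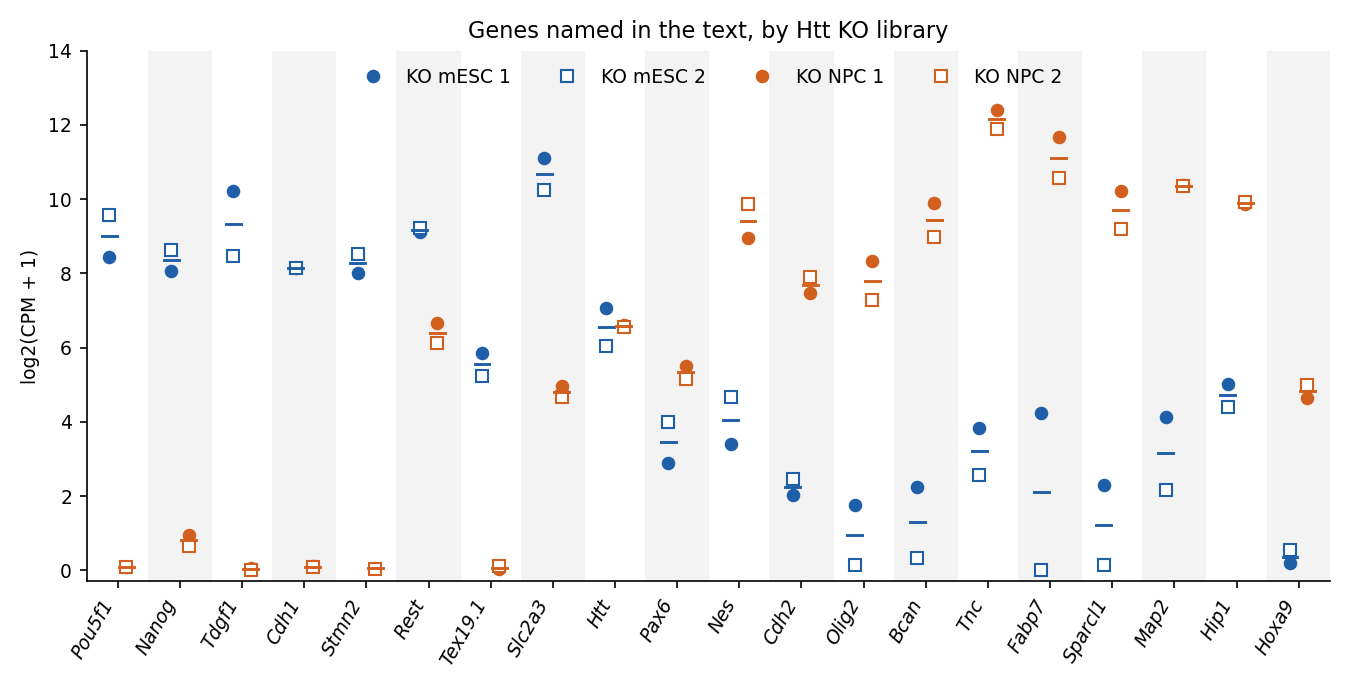
Level of 20 genes in each of the 4 KO libraries on a log2(CPM + 1) scale, with mESC in blue and NPC in orange, replicate 1 as a filled circle, replicate 2 as an open square and a bar at the mean of each pair. Pou5f1, Nanog and Cdh1 lie near 0 in NPC, Fabp7 and Tnc lie far above their mESC values, and Htt lies at like levels in both.

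Neuronal genes did not move as a group. Of 28 genes 17 were tested, 5 rose, 2 fell and 10 did not pass, with a median change of -0.16. Over all genes tested 18.7% were higher and 15.4% lower. Map2, a microtubule protein of dendrites that some progenitors also carry, was at 16.5 and 3.48 CPM in KO mESC and 1333 and 1306 CPM in KO NPC (change 7.22 ± 0.61, adjusted p = 0.000703). Gap43, of growth cones, was at 4.45 and 12.998 CPM in KO mESC and 95.2 and 91.5 CPM in KO NPC (change 3.43 ± 0.51). Syt1, Elavl4 and Gad1 rose to at most 14.1 CPM in NPC. Stmn2, a microtubule regulator known from neurons, went the other way, at 259 and 369.5 CPM in KO mESC and 0.0474 and 0.0258 CPM in KO NPC (change -8.23 ± 0.39, adjusted p = 0.000573). Nefl also fell, at 12.0 and 19.2 CPM in KO mESC and 0.854 and 4.57 CPM in KO NPC (change -2.33 ± 0.60, adjusted p = 0.0269). Tubb3, the usual marker of young neurons, was at 9.89 and 131 CPM in KO mESC and 10.6 and 6.40 CPM in KO NPC (change -2.03 ± 1.08, adjusted p = 0.196), and it was called lower without the library labelled KO mESC 1 (change -3.83, adjusted p = 0.0199) and with DESeq2 on all 4 libraries (change -3.04, adjusted p = 0.00359). Rbfox3 (NeuN) stayed at or below 1.21 CPM and Syn1 at or below 2.02 CPM in all 4 libraries. Doublecortin (Dcx), listed for NPC alone, was at 5.84 and 3.75 CPM. The number of rises was 3 without the library labelled KO mESC 1, 2 without KO mESC 2, 2 without KO NPC 1 and 3 without KO NPC 2, and the number of falls was 1, 1, 1 and 2 in that order.

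Genes of astrocytes rose in part. Of 15 tested 8 rose, none fell and 7 did not pass, with a median change of 2.44. Sparcl1, a secreted glial glycoprotein, was at 3.96 and 0.113 CPM in KO mESC and 1192 and 583 CPM in KO NPC (change 8.47 ± 0.74, adjusted p = 0.000745). Aldoc, the brain aldolase, was at 63.6 and 8.69 CPM in KO mESC and 1082 and 824 CPM in KO NPC (change 5.24 ± 0.82, adjusted p = 0.00464). Mlc1 was at 1.39 and 0.326 CPM in KO mESC and 236 and 98.8 CPM in KO NPC and the glutamate transporter Slc1a2 at 1.56 and 0.0376 CPM in KO mESC and 169 and 41.6 CPM in KO NPC. Gfap, the filament of mature astrocytes, was at 1.50 and 0.914 CPM in KO mESC and 4.14 and 0.878 CPM in KO NPC (change 0.51 ± 0.50, adjusted p = 0.474). Gja1 (connexin 43) showed how unlike the replicates can be, at 62.7 and 0.188 CPM in KO mESC and 72.7 and 2.33 CPM in KO NPC (change 0.85 ± 2.07). All 15 were higher in KO NPC 1 than in KO NPC 2, and 12 were higher in the library labelled KO mESC 1 than in KO mESC 2. The number of rises was 5 without the library labelled KO mESC 1, 6 without KO mESC 2, 5 without KO NPC 1 and 6 without KO NPC 2.

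In the oligodendrocyte lineage the genes of precursors rose and several of myelin fell. Of 13 tested 7 rose, 3 fell and 3 did not pass, with a median of 1.34. Bcas1 was at 1.66 and 0.902 CPM in KO mESC and 162 and 223 CPM in KO NPC (change 6.41 ± 0.40, adjusted p = 0.000573). Cspg4 (NG2), of precursors, was at 2.10 and 1.85 CPM in KO mESC and 88.7 and 60.0 CPM in KO NPC (change 4.64 ± 0.40), and the lineage factor Sox10 reached 3.10 and 1.44 CPM in NPC (change 1.16 ± 0.33, adjusted p = 0.0392). Of the genes that fell, Myrf, the master factor of myelination, was at 22.8 and 17.0 CPM in KO mESC and 3.24 and 1.76 CPM in KO NPC (change -2.60 ± 0.42, adjusted p = 0.00519), Mog at 3.52 and 7.15 CPM in KO mESC and 0.550 and 0.474 CPM in KO NPC, and Mobp at 3.43 and 3.81 CPM in mESC and listed at 0 in both NPC libraries. Without the library labelled KO mESC 1 there were 4 rises and 1 fall, without KO mESC 2 5 and 1, without KO NPC 1 3 and 3, and without KO NPC 2 5 and 3.

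Markers of other cells that the cultures could hold were read from lists of fibroblast and of microglial and blood genes. The mESC had been grown with feeder fibroblasts. Among fibroblast collagens Col1a1 was at 0.907 and 1.14 CPM in KO mESC and 0.541 and 0.586 CPM in KO NPC, below the minimum for a test, while Col5a1 was at 13.5 and 12.5 CPM in KO mESC and 21.996 and 28.5 CPM in KO NPC and did not pass (change 0.90 ± 0.37). The summed level of the 22 fibroblast genes in both tables was 55.3 and 65.8 CPM in KO mESC and 311 and 445 CPM in KO NPC. Fbn1 alone made up 197 and 308 CPM of the NPC sums. Of 16 tested 7 rose, 3 fell and 6 did not pass. No fibroblast gene in both tables is listed at 0 in both libraries of a cell type. The fibroblast genes that rose include Fbn1, at 9.82 and 15.9 CPM in KO mESC and 197 and 308 CPM in KO NPC (change 4.20 ± 0.39, adjusted p = 0.000868), and Prrx1, at 0.420 and 0.225 CPM in KO mESC and 20.0 and 30.4 CPM in KO NPC, while Pdgfrb fell, at 6.11 and 3.94 CPM in KO mESC and 0.304 and 0.439 CPM in KO NPC. The number of rises was 4 without the library labelled KO mESC 1, 3 without KO mESC 2, 4 without KO NPC 1 and 3 without KO NPC 2, with 0, 0, 2 and 2 falls. Of 9 microglial and blood genes only Cd68, a lysosomal protein, was tested, at 10.1 and 15.8 CPM in KO mESC and 1.69 and 1.64 CPM in KO NPC (change -2.36 ± 0.38), and Ptprc, Aif1, Csf1r and Cx3cr1 stayed at or below 0.362 CPM in every KO library. Itgam, listed for mESC alone, was at 3.67 and 6.65 CPM. What part cells of these types have in the changes was not tested.

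Hox genes, which set position along the hindbrain and spinal cord, were near 0 in KO mESC and rose in NPC. Of 39 genes 19 were tested, which nearly all entered through their NPC level, 18 rose and none fell, with a median change of 2.53. Levels in NPC were low to moderate. Hoxa9 reached the largest change, at 0.145 and 0.463 CPM in KO mESC and 24.0 and 31.0 CPM in KO NPC (change 4.45 ± 0.37, adjusted p = 0.000691). Hoxa2, of the anterior hindbrain, was at 0.473 and 0.0877 CPM in KO mESC and 9.50 and 18.0 CPM in KO NPC (change 3.48 ± 0.42, adjusted p = 0.00181). Hoxb3 was at 0 and 0.0626 CPM in KO mESC and 6.15 and 15.1 CPM in KO NPC and Hoxc6 at 0 and 0.0501 CPM in KO mESC and 6.17 and 7.27 CPM in KO NPC. A few differed widely between both NPC libraries, such as Hoxb9 at 20.4 and 2.64 CPM and Hoxa5 at 2.70 and 21.3 CPM. Genes of all 4 clusters were among those that rose. With genes of 3 or more exons only, 9 of 10 rose, and all 9 with 1 or 2 exons rose. The count depended on each library: 9 rises without the library labelled KO mESC 1, 8 without KO mESC 2, 1 without KO NPC 1 and 1 without KO NPC 2. Reads of a Hox gene and of the antisense transcripts known in these clusters cannot be told apart here, since the use of strand in the counting is not given in the sources used here.

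Most other patterning genes tested rose. The forebrain factor Emx1 stayed at or below 0.263 CPM in every KO library, and Otx2, a factor of the epiblast and of forebrain and midbrain, fell from 49.5 and 13.9 to 0.569 and 0.293 CPM (change -4.27 ± 0.61, adjusted p = 0.00339). Of 14 patterning genes tested 9 rose, 2 fell and 3 did not pass, with a median of 2.02. Dbx2, a factor of intermediate spinal progenitors, was at 3.82 and 1.48 CPM in KO mESC and 136 and 53.9 CPM in KO NPC (change 4.65 ± 0.58, adjusted p = 0.00212). En1, of midbrain and anterior hindbrain, was at 0.145 and 0.513 CPM in KO mESC and 13.9 and 11.4 CPM in KO NPC (change 3.37 ± 0.35), the dorsal factor Pax3 at 0.223 and 0.0376 CPM in KO mESC and 9.47 and 8.74 CPM in KO NPC, and Irx5 at 0.355 and 0.426 CPM in KO mESC and 16.8 and 12.5 CPM in KO NPC. Emx2 and Lhx2, also used in forebrain, rose as well, to 5.22 and 5.34 and 3.37 and 6.61 CPM. The number of rises was 8 without the library labelled KO mESC 1, 5 without KO mESC 2, 2 without KO NPC 1 and 2 without KO NPC 2, with 0, 0, 1 and 2 falls.

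Epithelial adhesion genes fell, and Cdh11, Zeb1, Zeb2 and Ncam1 rose. Of 14 tested 9 fell, 4 rose and 1 did not pass, with a median of -1.96. E-cadherin (Cdh1), which holds mESC colonies together, was at 281 and 284 CPM in KO mESC and 0.0854 and 0.0603 CPM in KO NPC (change -8.04 ± 0.36, adjusted p = 0.000573). Epcam was at 259 and 115 CPM in KO mESC and 0.0285 and 0.233 CPM in KO NPC (change -7.27 ± 0.50), and the keratin Krt8 at 17.1 and 23.1 CPM in mESC and listed at 0 in both NPC libraries. Zeb1 and Zeb2, repressors of Cdh1, both rose: Zeb1 was at 42.0 and 44.2 CPM in KO mESC and 843 and 788 CPM in KO NPC (change 4.21 ± 0.26, adjusted p = 0.000573), and Zeb2 at 2.44 and 2.70 CPM in KO mESC and 148 and 154 CPM in KO NPC (change 5.41 ± 0.35, adjusted p = 0.000573). Snai1 and Snai2, other repressors of Cdh1, stayed at or below 1.01 CPM. Ncam1 was at 25.8 and 24.7 CPM in KO mESC and 513 and 261 CPM in KO NPC (change 3.81 ± 0.39), while L1cam, also a neural adhesion molecule, fell, at 3.86 and 3.36 CPM in KO mESC and 0.285 and 0.0861 CPM in KO NPC (change -1.96 ± 0.28). Fibronectin (Fn1) fell, at 885 and 331 CPM in KO mESC and 170.5 and 138 CPM in KO NPC (change -1.81 ± 0.48, adjusted p = 0.0301), and was not called without the library labelled KO mESC 1 (adjusted p = 0.0830) or without KO NPC 2 (0.0553). The count of falls was 1 without the library labelled KO mESC 1, 2 without KO mESC 2, 9 without KO NPC 1 and 7 without KO NPC 2.

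Receptors and targets of the signals that differ between the media changed in both directions. Of 23 genes of LIF, FGF and EGF signalling 9 rose, 3 fell and 11 did not pass. The shares over all genes tested were 18.7% higher and 15.4% lower. The LIF receptor subunits Lifr and Il6st did not pass, Lifr at 155 and 119 CPM in KO mESC and 140.0 and 201 CPM in KO NPC and Il6st at 154 and 91.3 CPM in KO mESC and 136 and 109.7 CPM in KO NPC. Stat3, their effector, was at 51.5 and 115 CPM in KO mESC and 311 and 213 CPM in KO NPC (change 1.73 ± 0.44, adjusted p = 0.0269), and Socs3, a direct target of it, at 11.5 and 119.9 CPM in KO mESC and 4.72 and 4.59 CPM in KO NPC (change -2.78 ± 0.99, adjusted p = 0.0742). Among receptors, Fgfr1 was at 68.1 and 58.3 CPM in KO mESC and 187 and 138 CPM in KO NPC (change 1.34 ± 0.30). The neuregulin receptors moved apart: Erbb4 rose, at 0.657 and 0.0376 CPM in KO mESC and 99.2 and 20.95 CPM in KO NPC (change 5.16 ± 0.74, adjusted p = 0.00340; 0.0582 without KO mESC 2), and Erbb3 fell, at 33.4 and 43.8 CPM in KO mESC and 1.05 and 0.956 CPM in KO NPC (change -4.29 ± 0.38, adjusted p = 0.000776). Among FGF targets, Dusp6 was at 30.3 and 52.6 CPM in KO mESC and 176 and 225 CPM in KO NPC (change 2.29 ± 0.36) and Etv5 at 286 and 391 CPM in KO mESC and 648 and 708 CPM in KO NPC (change 1.02 ± 0.29, adjusted p = 0.0374). The Etv5 call was lost without any 1 of the 4 libraries (adjusted p 0.0725 to 0.159). Spred1, Spry1, Spry2 and Spry4 did not pass. The number of rises was 5 without the library labelled KO mESC 1, 6 without KO mESC 2, 3 without KO NPC 1 and 7 without KO NPC 2, with 2, 1, 2 and 2 falls.

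Genes of Notch signalling, which keeps neural progenitors from differentiating, changed by member. Of 20 genes tested 10 rose, 3 fell and 7 did not pass, with a median of 1.77. Notch1 was at 68.8 and 35.04 CPM in KO mESC and 563 and 289.8 CPM in KO NPC (change 3.01 ± 0.46, adjusted p = 0.00434; 0.0515 without KO mESC 2). Of the ligands, Dll1 was at 10.3 and 4.04 CPM in KO mESC and 166 and 77.1 CPM in KO NPC (change 3.92 ± 0.56) and Dll3 at 1.68 and 2.00 CPM in KO mESC and 40.4 and 21.6 CPM in KO NPC, while Jag2 fell, at 25.7 and 19.06 CPM in KO mESC and 0.787 and 0.904 CPM in KO NPC (change -3.65 ± 0.37, adjusted p = 0.00105). Lfng, the glycosyltransferase that tunes ligand choice, was at 2.39 and 2.204 CPM in KO mESC and 76.3 and 66.0 CPM in KO NPC (change 4.45 ± 0.37), and the noncanonical ligand Dner was at 1.89 and 1.45 CPM in KO mESC and 84.4 and 72.3 CPM in KO NPC (change 4.89 ± 0.38, adjusted p = 0.000600). Rbpj, the DNA-binding partner of the pathway, fell, at 229 and 329 CPM in KO mESC and 51.7 and 57.2 CPM in KO NPC (change -2.32 ± 0.31, adjusted p = 0.00261). Of the targets, Hey1 rose, at 1.14 and 1.43 CPM in KO mESC and 62.5 and 23.3 CPM in KO NPC (change 4.10 ± 0.54), Hes5 of the progenitor list rose, at 0.696 and 0.225 CPM in KO mESC and 20.8 and 4.31 CPM in KO NPC (change 2.90 ± 0.66, adjusted p = 0.0184), and Hes1 did not pass, at 30.5 and 18.7 CPM in KO mESC and 45.9 and 33.9 CPM in KO NPC. Falls numbered 2 without either mESC library and 3 without either NPC library, and the number of rises was 7 to 11.

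Genes of germ cells that mESC also transcribe fell. Of 18 genes 10 were tested, 9 fell and 1 rose, with a median of -3.26, and 8 were listed for mESC alone. Tex19.1, which restrains retrotransposons, was at 57.2 and 36.9 CPM in KO mESC and 0.0190 and 0.0775 CPM in KO NPC (change -5.49 ± 0.39, adjusted p = 0.000600). The RNA helicase Ddx4 (Vasa) was at 46.6 and 75.2 CPM in KO mESC and 0.835 and 0.241 CPM in KO NPC (change -5.32 ± 0.44, adjusted p = 0.000677). Sycp3, of the synaptonemal complex, was at 52.5 and 16.8 CPM in KO mESC and 0.152 and 0.103 CPM in KO NPC (change -4.77 ± 0.56, adjusted p = 0.00173). Rnf17, a Tudor protein of male germ cells that the list does not hold, was among the 6 largest falls of all genes, at 319 and 254 CPM in KO mESC and 0.0285 and 0.0344 CPM in KO NPC (change -8.11 ± 0.37, adjusted p = 0.000573). The gene that rose, Tdrkh, at 7.15 and 4.93 CPM in KO mESC and 49.4 and 47.9 CPM in KO NPC (change 2.84 ± 0.38), is a mitochondrial Tudor protein of the piRNA pathway. The falls numbered 1 without the library labelled KO mESC 1, 0 without KO mESC 2, and 7 without either NPC library.

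The promoters of these 3 germline genes are given because they fell together and each holds TCCCGC, the core letters bound by E2F6, a repressor of germline genes in other cells. Capitals mark these letters on either strand. They are common: 35.4% of all windows, 32.4% of windows of genes that fell and 6 of 10 windows of the tested germline genes hold them. Tex19.1 lies at chr11:121145893-121146192 on the plus strand, Ddx4 at chr13:112652261-112652560 on the minus strand and Sycp3 at chr10:88459337-88459636 on the plus strand.
Tex19.1: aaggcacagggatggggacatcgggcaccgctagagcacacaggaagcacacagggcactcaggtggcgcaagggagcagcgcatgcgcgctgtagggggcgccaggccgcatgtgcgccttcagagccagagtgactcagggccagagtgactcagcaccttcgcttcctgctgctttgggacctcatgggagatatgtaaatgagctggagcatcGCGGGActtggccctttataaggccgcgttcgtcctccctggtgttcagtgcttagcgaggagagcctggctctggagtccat
Ddx4: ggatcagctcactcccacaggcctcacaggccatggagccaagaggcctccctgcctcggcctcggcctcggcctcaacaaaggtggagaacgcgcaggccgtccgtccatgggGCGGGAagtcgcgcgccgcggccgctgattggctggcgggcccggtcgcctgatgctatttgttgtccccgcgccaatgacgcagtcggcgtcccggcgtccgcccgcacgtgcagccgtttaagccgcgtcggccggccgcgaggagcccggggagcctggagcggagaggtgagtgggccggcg
Sycp3: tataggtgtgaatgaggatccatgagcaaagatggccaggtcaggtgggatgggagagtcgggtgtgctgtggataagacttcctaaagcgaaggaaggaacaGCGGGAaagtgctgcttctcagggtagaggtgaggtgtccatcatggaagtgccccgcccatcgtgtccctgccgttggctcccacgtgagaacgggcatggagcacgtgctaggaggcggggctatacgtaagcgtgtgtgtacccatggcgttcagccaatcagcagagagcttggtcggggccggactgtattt
No data on binding or methylation at these windows were used.

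Enzymes of DNA methylation changed by member. Of 9 tested 3 rose, 2 fell and 4 did not pass, beside 18.7% higher and 15.4% lower over all genes tested. Tet1, the 5-methylcytosine oxidase of mESC, was at 517 and 459 CPM in KO mESC and 44.8 and 24.8 CPM in KO NPC (change -3.83 ± 0.36, adjusted p = 0.000870), and Tet2 was at 175 and 271 CPM in KO mESC and 116 and 87.9 CPM in KO NPC (change -1.10 ± 0.34). Tet3 went the other way, at 11.3 and 5.58 CPM in KO mESC and 76.8 and 56.3 CPM in KO NPC (change 2.89 ± 0.44, adjusted p = 0.00434). The maintenance enzyme Dnmt1 was at 512 and 638 CPM in KO mESC and 327 and 676 CPM in KO NPC (change -0.28 ± 0.40, adjusted p = 0.624). Dnmt3l, the cofactor used in mESC and germ cells, is listed for mESC alone, at 225 and 422 CPM. The number of rises was 2 without the library labelled KO mESC 1 and 1 without any other library, and the number of falls was 1, 1, 1 and 2.

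Imprinted genes, transcribed from 1 parental copy, rose or fell by member. Of 16 tested 6 rose, 2 fell and 8 did not pass, beside 18.7% higher and 15.4% lower over all genes tested. Nnat was at 3.31 and 2.19 CPM in KO mESC and 87.4 and 83.3 CPM in KO NPC (change 4.54 ± 0.38, adjusted p = 0.000679), and Mest at 34.8 and 47.0 CPM in KO mESC and 556 and 1335 CPM in KO NPC (change 4.38 ± 0.46, adjusted p = 0.00113). Peg3 and Peg10 rose to 127 and 114 and 323 and 554 CPM. Grb10, a brake on insulin receptor signalling, fell, at 161 and 97.2 CPM in KO mESC and 7.32 and 4.33 CPM in KO NPC (change -4.24 ± 0.43, adjusted p = 0.00103). Leaving out any 1 library gave 4 or 5 rises and 2 falls. The Y-linked genes Ddx3y, Eif2s3y and Uty were at 21.9 to 45.6 CPM in KO mESC and 57.3 to 93.3 CPM in KO NPC, with changes of 1.00 to 1.27, and all 3 calls were lost without any 1 of the 4 libraries (adjusted p 0.0545 to 0.291).

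Among genes of cell cycle entry the D-type cyclins Ccnd1 and Ccnd2 rose and Ccne1 fell. Of 20 tested 7 rose, 2 fell and 11 did not pass, beside 18.7% higher and 15.4% lower over all genes tested. Cyclin D1 (Ccnd1) was at 200.2 and 177 CPM in KO mESC and 779 and 1372 CPM in KO NPC (change 2.45 ± 0.35, adjusted p = 0.00333; 0.0506 without KO mESC 2), and Ccnd2 at 28.9 and 30.9 CPM in KO mESC and 309 and 267 CPM in KO NPC (change 3.22 ± 0.28, adjusted p = 0.000752). Ccne1, the cyclin of S-phase entry, was at 100.1 and 163 CPM in KO mESC and 10.1 and 41.9 CPM in KO NPC (change -2.56 ± 0.65, adjusted p = 0.0265). Of the 5 inhibitors of cyclin kinases in this list 4 rose: Cdkn2c was at 1.91 and 1.00 CPM in KO mESC and 53.1 and 82.9 CPM in KO NPC (change 4.80 ± 0.43, adjusted p = 0.000829), with Cdkn1a, Cdkn2a and Cdkn2b also called. The fifth, Cdkn1b, did not pass (change 0.94 ± 0.40, adjusted p = 0.116). Mycn fell, at 52.8 and 87.8 CPM in KO mESC and 9.58 and 2.15 CPM in KO NPC (change -3.58 ± 0.64, adjusted p = 0.00741), and was not called without the library labelled KO mESC 1 (adjusted p = 0.0514) or KO mESC 2 (0.0854). Myc was at 4.56 and 31.8 CPM in KO mESC and 44.1 and 43.6 CPM in KO NPC (change 1.73 ± 0.79, adjusted p = 0.142). The count of falls was 1, 0, 1 and 3 without the library labelled KO mESC 1, KO mESC 2, KO NPC 1 and KO NPC 2, and the number of rises was 5 or 6.

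Glucose uptake and glycolysis genes fell or did not pass, and none rose. Of 19 tested 9 fell, with a median of -1.32. Slc2a3, the neuronal-type glucose transporter that mESC use, was at 2219.6 and 1214 CPM in KO mESC and 30.2 and 24.4 CPM in KO NPC (change -5.86 ± 0.36, adjusted p = 0.000573). Pfkp, a phosphofructokinase, was at 413 and 182 CPM in KO mESC and 16.5 and 10.8 CPM in KO NPC (change -4.26 ± 0.47, adjusted p = 0.00135). Pdk1, which keeps pyruvate out of the mitochondria, was at 637 and 471 CPM in KO mESC and 42.0 and 42.3 CPM in KO NPC (change -3.67 ± 0.29). Pyruvate kinase (Pkm) was at 5205 and 3116 CPM in KO mESC and 1474 and 1771 CPM in KO NPC (change -1.32 ± 0.36, adjusted p = 0.0336), and its call was lost without any 1 library but KO NPC 2 (adjusted p 0.0619 to 0.147). Aldoa was at 2679 and 1075 CPM in KO mESC and 558 and 698 CPM in KO NPC (change -1.44 ± 0.46, adjusted p = 0.0551) and was called by edgeR (adjusted p = 0.0468). Of the 19 genes 17 were higher in the library labelled KO mESC 1 than in KO mESC 2, and 16 were higher in KO NPC 2 than in KO NPC 1. Falls numbered 6, 6, 5 and 10 without the library labelled KO mESC 1, KO mESC 2, KO NPC 1 and KO NPC 2.

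The study's title concerns splicing, and regulators of splicing changed by member. Of 25 tested 7 rose, 6 fell and 12 did not pass, beside 18.7% higher and 15.4% lower over all genes tested. Rbm24 was at 0.394 and 0.138 CPM in KO mESC and 38.5 and 20.9 CPM in KO NPC (change 4.54 ± 0.43, adjusted p = 0.000882). Nova1, a neuronal splicing factor, was at 7.00 and 2.17 CPM in KO mESC and 65.6 and 145 CPM in KO NPC (change 4.29 ± 0.60, adjusted p = 0.00318). Quaking (Qk), which many glial cells carry and which can promote circular RNAs, was at 266 and 155 CPM in KO mESC and 1639 and 937 CPM in KO NPC (change 2.60 ± 0.41, adjusted p = 0.00458; 0.0568 without KO mESC 2). Mbnl1 was at 26.1 and 34.1 CPM in KO mESC and 123 and 175 CPM in KO NPC (change 2.26 ± 0.34), while Mbnl3 fell, at 4.38 and 3.41 CPM in KO mESC and 0.256 and 0.663 CPM in KO NPC. Ptbp1, which represses neuronal exons, was at 409 and 504 CPM in KO mESC and 208 and 319 CPM in KO NPC (change -0.81 ± 0.32, adjusted p = 0.0969), and its neuronal paralog Ptbp2 at 90.7 and 63.3 CPM in KO mESC and 121 and 133 CPM in KO NPC (change 0.73 ± 0.31, adjusted p = 0.118). Celf4 fell, at 8.87 and 15.5 CPM in KO mESC and 0.702 and 1.58 CPM in KO NPC (change -2.61 ± 0.43, adjusted p = 0.00561; 0.0524 without KO mESC 2), and the epithelial factor Esrp2 fell, at 5.05 and 6.74 CPM in KO mESC and 0.939 and 0.956 CPM in KO NPC. Falls numbered 1, 1, 2 and 3 and the number of rises 6, 5, 4 and 4 without the library labelled KO mESC 1, KO mESC 2, KO NPC 1 and KO NPC 2.

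Partners of huntingtin were read in cells labelled as lacking it. Of 11 tested, Htt included, 2 rose, 2 fell and 7 did not pass. These counts are near the shares over all genes tested, 18.7% higher and 15.4% lower. Hip1, an endocytic adaptor found by its binding to huntingtin, was at 31.3 and 20.2 CPM in KO mESC and 931 and 965 CPM in KO NPC, a ratio of means of 36.8 (change 5.18 ± 0.31, adjusted p = 0.000573). Its paralog Hip1r was at 34.4 and 20.6 CPM in KO mESC and 34.4 and 29.2 CPM in KO NPC (change 0.24 ± 0.39, adjusted p = 0.667). Rest, the repressor of neuronal genes that huntingtin can hold in the cytoplasm, was at 558 and 593 CPM in KO mESC and 101 and 68.3 CPM in KO NPC (change -2.78 ± 0.30, adjusted p = 0.00133). Zdhhc17 (Hip14), a palmitoyl transferase of huntingtin, rose, at 43.4 and 26.0 CPM in KO mESC and 103 and 74.3 CPM in KO NPC (change 1.35 ± 0.38, adjusted p = 0.0361). Trip10 (Cip4) fell, at 48.5 and 61.8 CPM in KO mESC and 14.6 and 24.2 CPM in KO NPC (change -1.49 ± 0.39, adjusted p = 0.0285). Hap1 was at 28.4 and 71.6 CPM in KO mESC and 11.7 and 22.1 CPM in KO NPC (change -1.43 ± 0.55, adjusted p = 0.0916), and Bdnf, a Rest target, stayed at or below 3.06 CPM. F8a (Hap40), the stable partner of huntingtin, is listed for NPC alone, at 10.3 and 9.64 CPM. Without any 1 library there was 1 rise, and 1 or 2 falls.

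**Figure D3:**
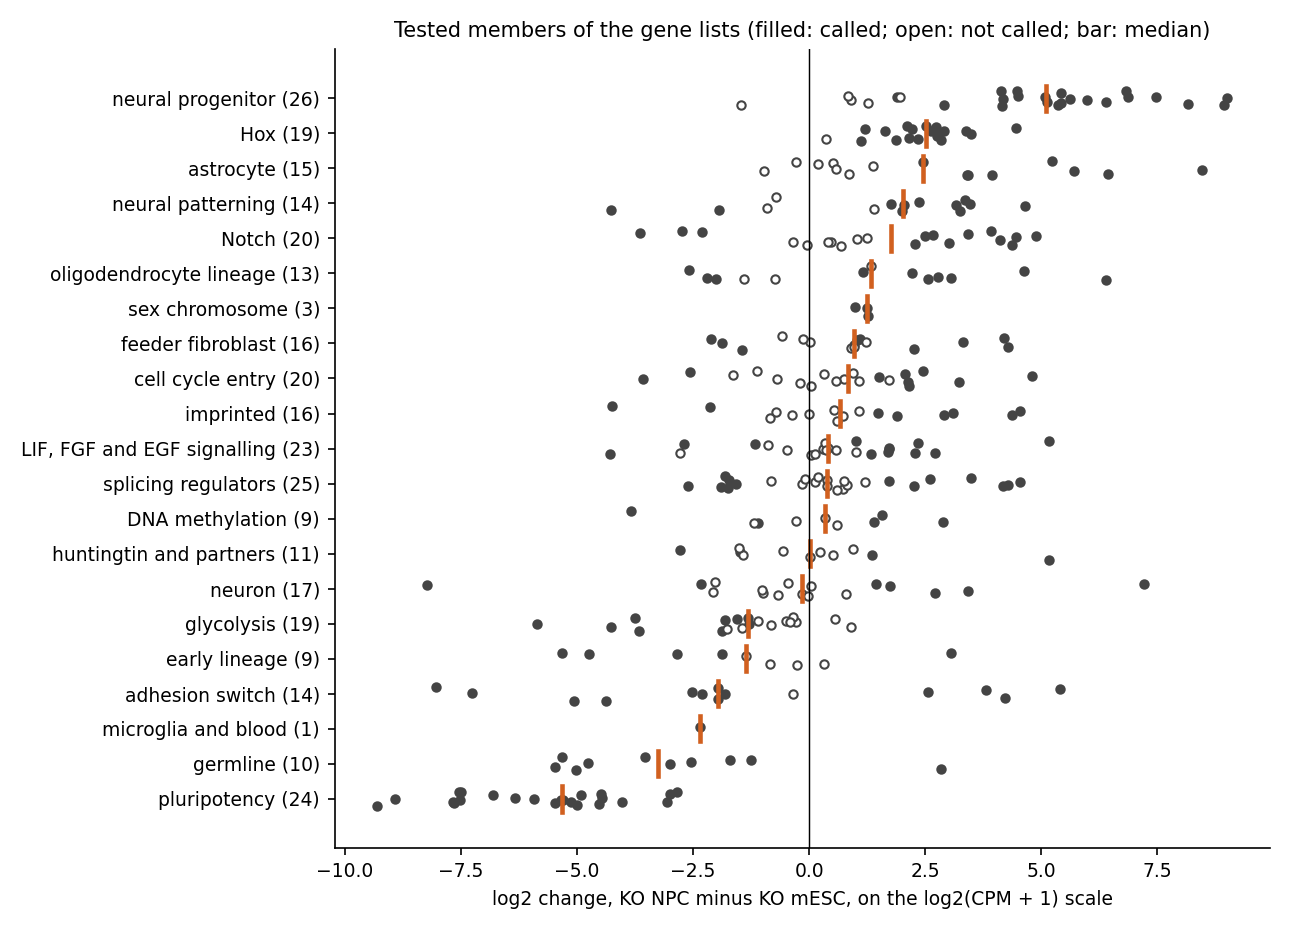
Change in log2(CPM + 1) from KO mESC to KO NPC for each tested gene of 21 lists, with filled points for called genes, open points for the rest, a bar at each list's median and the number tested in brackets. Pluripotency genes lie below 0 throughout, progenitor and Hox genes lie mostly above it, and the neuronal list is spread on both sides.

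The KO change was then set beside those of the other genotypes. WT cells were fitted in the same way: 4243 of 13031 genes were called (32.6%), with 2299 higher (17.6%) and 1944 lower (14.9%). Over 12776 genes tested in both, the KO and WT changes had r = 0.937 and Spearman's rho = 0.911 across genes, which are not independent, and the 2 genotypes share no library. Of 4304 KO calls among them 3403 (79.1%) were called in WT in the same direction, which is 82.6% of the 4119 WT calls, and 0 were called in the opposite direction. The sign was shared by 4276 KO calls (99.3%). By list, WT had 24 of 24 pluripotency genes lower, 22 of 26 progenitor genes higher and 0 lower, and 7 of 19 glycolysis genes lower, beside 24, 21 and 9 in KO.

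The difference between both changes, tested over 8 libraries, gave 0 called of 13493 (0%) with limma, 430 with an unadjusted p under 0.05 (3.19%), 0 with edgeR (484 under 0.05) and 76 with DESeq2 (712 under 0.05). The limma test recovered 0 of 66 genes with a simulated 8-fold difference, so a count of 0 says little about the absence of differences of that size. Fabp7, Tnc, Olig2 and Nes all had differences whose SE left them undecided. Fabp7 had a difference of -1.97 ± 1.65, with 0.0807 and 0.0842 CPM in WT mESC and 2503 and 1928 CPM in WT NPC on the scale of 8 libraries. For Rest the difference was -0.81 ± 0.39, with 136 and 122 CPM in WT NPC beside 101 and 68.6 CPM in KO NPC. For Htt it was -0.40 ± 0.50 (adjusted p = 1.00).

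The 3 genes with the smallest p in this difference were Hoxc6, Hoxa9 and Cx3cl1, none of which was called (adjusted p = 0.155 for each). Hoxc6 was at 6.21 and 7.30 CPM in KO NPC and at 0 and 0.0599 CPM in WT NPC, a difference of 2.89 ± 0.30. Hoxa9 was at 24.1 and 31.1 CPM in KO NPC and at 1.02 and 1.22 CPM in WT NPC, a difference of 3.72 ± 0.41. In all 4 mESC libraries both genes were at or below 0.466 CPM. Cx3cl1, the membrane chemokine fractalkine, was at 60.4 and 43.1 CPM in KO NPC and 2.68 and 5.03 CPM in WT NPC, and at 0.251 and 0.327 CPM in KO mESC and 1.31 and 2.19 CPM in WT mESC, a difference of 4.54 ± 0.53. With all 24 libraries in the fit the adjusted p was 9.27e-05 for Hoxc6, 2.49e-06 for Hoxa9 and 0.00395 for Cx3cl1, and DESeq2 gave 0.00186 for Hoxa9 and 1.72e-13 for Cx3cl1. In the 8 knock-in NPC libraries Cx3cl1 ran from 55.8 through a median of 79.5 to 98.1 CPM on the scale of 24 libraries, above WT as in KO, and its change in KO did not pass against the knock-in mean (adjusted p = 0.351). These 3 genes were picked for this difference, so nothing is read from KO NPC and WT NPC not overlapping in them.

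**Figure D4:**
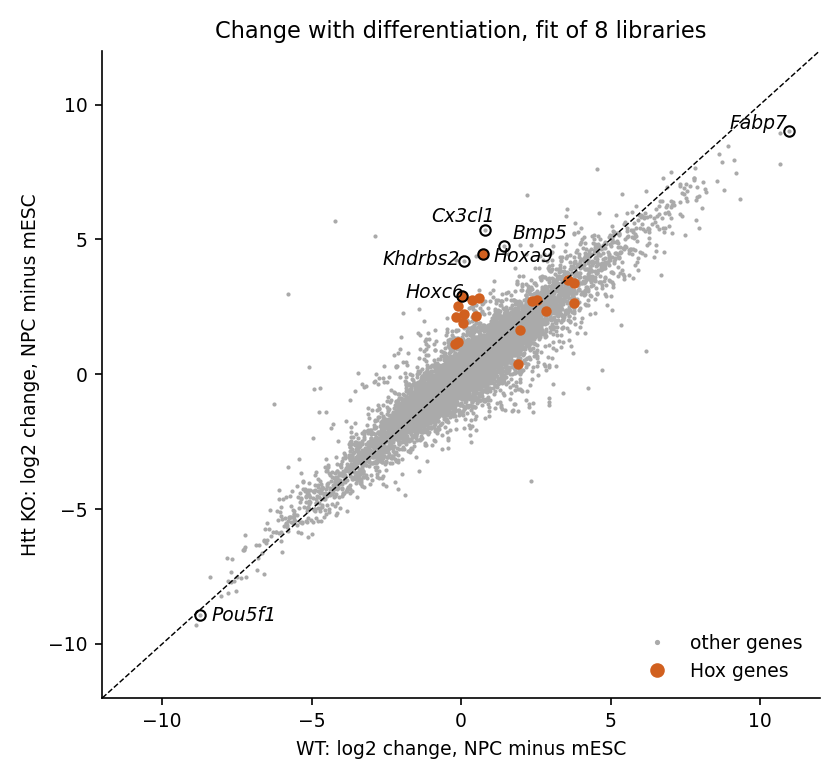
Change from mESC to NPC in WT (horizontal) and KO (vertical) for each gene tested over 8 libraries, in log2(CPM + 1), with Hox genes in orange and the dashed line marking equal changes. Most genes lie along the line, and several Hox genes, Cx3cl1, Bmp5 and Khdrbs2 lie above it.

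Against the mean change of the 4 knock-in lines, fitted over 24 libraries, 370 of 14105 genes differed (2.62%), 213 with a more positive change in KO (1.51%) and 157 with a more negative one (1.11%). Without the library labelled KO mESC 1 the negative count was 84, without KO NPC 1 the counts were 122 positive and 75 negative, and without KO NPC 2 the negative count was 100. The counts were 518 positive and 492 negative with the replicate number as a block within each cell type, and 242 negative with 1 replicate block over both cell types. The knock-in lines were not alike. Q20 NPC kept Pou5f1 at 89.0, Nanog at 13.4, Dnmt3b at 226 and Stmn2 at 116 CPM, and Q50 NPC had Y-linked transcripts near 0, with Ddx3y at 0.0648 CPM. Pou5f1, Stmn2, Ddx3y, Eif2s3y and Uty were among the called genes. With Q20 left out of the knock-in mean there were 180 positive and 104 negative differences and Pou5f1 was not called (adjusted p = 0.890), and the Stmn2 difference went from -2.67 to -1.19. With Q50 left out there were 283 and 202, Eif2s3y (adjusted p = 0.0710) and Uty (0.421) were not called, and the Ddx3y difference went from 2.16 to 0.92. This test shares the KO libraries with the one against WT. Bmp5, a BMP ligand, had the smallest adjusted p of the genes named here, at 34.2 and 24.6 CPM in KO NPC, 1.87 and 1.64 CPM in WT NPC and from 0.0672 through a median of 1.54 to 2.96 CPM in the 8 knock-in NPC libraries on the scale of 24 libraries, a difference of 3.79 ± 0.20 (adjusted p = 6.93e-08; edgeR gave 1.00). Acta2, smooth muscle actin, had the largest positive difference, 5.03 ± 1.06 (adjusted p = 0.0174). Its knock-in mESC libraries ran from 30.3 through a median of 44.8 to 97.5 CPM, while KO mESC were at 1.36 and 2.62 CPM and WT mESC at 2.14 and 2.96 CPM. The Acta2 call was lost without the library labelled KO mESC 1 (adjusted p = 0.0992), KO mESC 2 (0.0505) or KO NPC 2 (0.114). In mESC, WT and KO thus lay together for Acta2 and apart from the knock-in lines. Acta2 levels in NPC overlapped, at 0.725 and 17.9 CPM in KO, 0.667 and 16.04 in WT and 0.440 to 8.49 in knock-in. For Mageb16, WT and KO lay apart from the knock-in lines in NPC instead. KO NPC were at 14.1 and 16.4 CPM and WT NPC at 39.4 and 31.2 CPM. The knock-in NPC maximum was 0.215 CPM (difference 4.65 ± 0.71, adjusted p = 0.00159). Mageb16 levels in mESC overlapped, at 12.6 and 20.2 CPM in KO, 41.4 and 9.29 in WT and 10.96 to 47.3 in knock-in.

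Of 21 Hox genes tested 11 were called with a more positive change in KO than in the knock-in lines and none with a more negative one. The positive count was 6 without the library labelled KO mESC 1 and 6 with edgeR, and 8 to 10 with Q20, Q50 or both left out of the knock-in mean. Split by paralog number, which was done after the values were seen, the 11 genes of groups 6 to 13 were each higher in both KO NPC libraries than in both WT NPC libraries, against 15.1% of 14105 genes, and 2 of 10 genes of groups 1 to 5 were. One of the 11, Hoxd9, reached 1 CPM in the KO NPC libraries alone, at 2.14 and 1.07 CPM, so the filter fixed its direction. The summed level of the posterior genes was 90.5 and 72.4 CPM in KO NPC and 4.00 and 5.47 CPM in WT NPC. Their mean sum was 20.5 CPM in Q20, 1.35 in Q50, 141.5 in Q92 and 0.227 in Q111 NPC, and Hoxb9 alone made up 72.2 of the 141.5 CPM in Q92. Without Hoxb9 the sums were 69.4 and 69.7 CPM in KO, 3.77 and 4.93 CPM in WT and 69.3 CPM in Q92 NPC. For groups 1 to 5 the sums were 53.6 and 90.2 CPM in KO and 81.7 and 69.6 CPM in WT NPC, which overlap, with 50.6 in Q20, 20.3 in Q50, 88.4 in Q92 and 2.04 in Q111. Hoxa9 had a mean of 28.4 CPM in both KO and Q92 NPC. Whether a genotype is more than 1 line is not given in the sources used here, so genotype and line cannot be told apart in these levels.

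**Figure D5:**
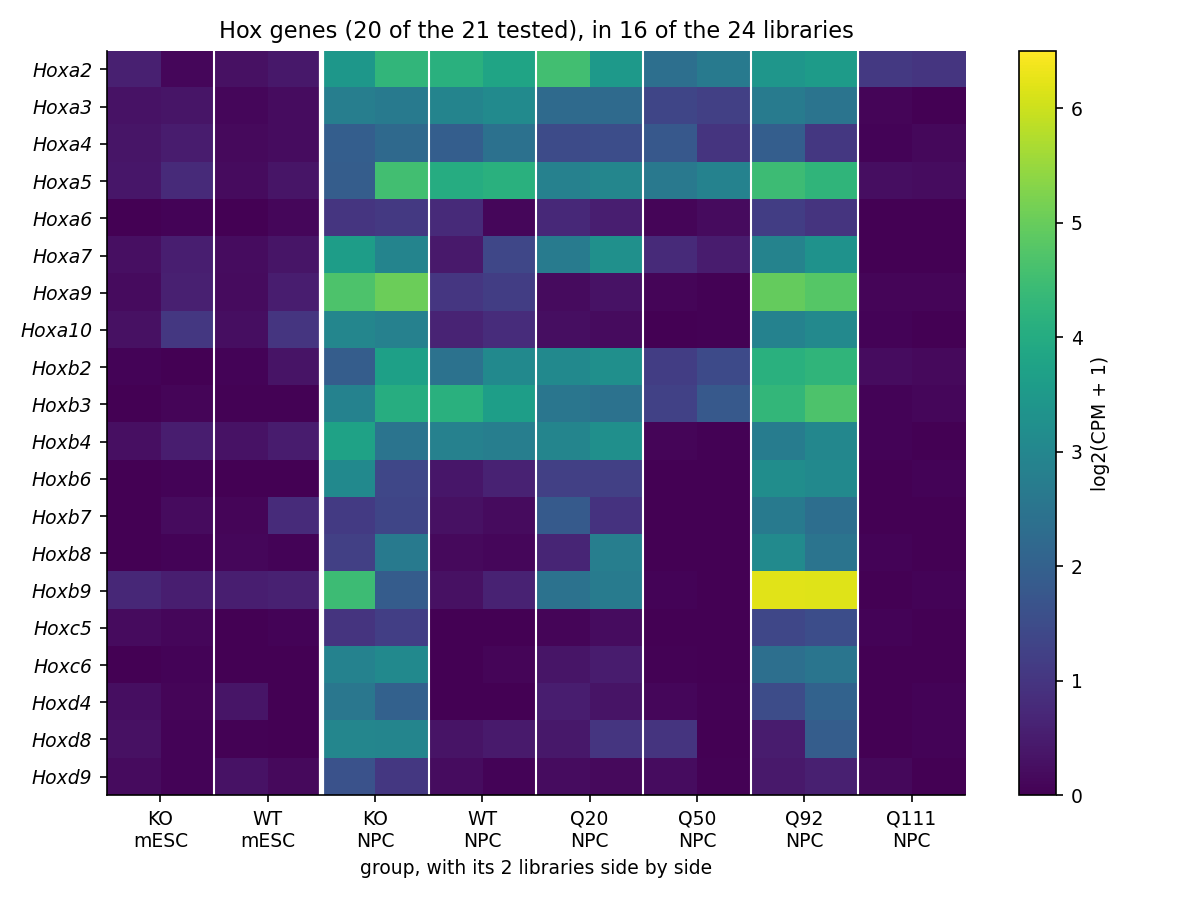
Level of 20 of the 21 tested Hox genes, ordered by cluster and then by paralog number, as log2(CPM + 1) in KO and WT mESC libraries and in the NPC libraries of all 6 genotypes. The mESC columns are near 0, and the summed level of groups 6 to 13 is higher in KO and Q92 NPC than in WT, Q50 and Q111 NPC, with Hoxd9 low in Q92 as well. The summed level of groups 1 to 5 is lowest in Q111 NPC.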

How the data were processed

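Total RNA of 12 groups with 2 libraries each was sequenced by the study's authors. The submitters' processing notes name CASAVA 1.8, STAR and GRCm38.p6. The counter, annotation, filter on genes and normalization are not given in the sources used here. The authors deposited 1 table per cell type whose signal values are gene read counts divided by a factor per library. Every value in the 24 columns was a whole multiple of 1 step (100% within 0.05 reads), so whole reads were recovered and joined by gene identifier. CPM values had been planned for, and the signal values were turned into CPM from these reads.

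Reads were scaled by TMM (edgeR 4.0.16). Genes listed in both tables with at least 1 CPM in 2 libraries were tested on log2(CPM + 1) with limma 3.58.1 in R 4.3.3, with a trended variance, two-sided, and Benjamini-Hochberg adjustment over all genes tested. KO NPC against KO mESC used 4 libraries, the difference between the KO and WT changes 8, and that against the knock-in mean 24. edgeR's quasi-likelihood test and DESeq2 1.42.0 on the recovered reads, other scalings, pseudocounts and filters, the fit with a replicate block and leaving out each library were alternatives. In tests on simulated data, 16 of 12676 unchanged genes were called in the first comparison.

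The members and gene lists were chosen with earlier results of these data known. Genes named beyond the lists were the 6 largest rises and falls among called genes whose cell types did not overlap. These averaged at least 20 CPM in the higher cell type. In each list the largest called rise and fall and the 2 with the highest mean were named. For differences between genotypes the 5 largest called each way with at least 5 CPM were named, or the 3 with the smallest p. Some genes are not reported here. Other list members are named as examples chosen after their values were seen. Gene positions are from GENCODE M21, which matched 99.8% of the 15572 joint identifiers, and promoters from RefSeq.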

Additional observations from a re-analysis of the deposited data

Results flagged for a closer look

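These genes changed from mESC to NPC in KO by another amount than in the mean of the 4 knock-in lines, with an adjusted p under 0.05 in the test of that difference over 24 libraries (limma). Differences are on the log2(CPM + 1) scale, KO minus knock-in, ± SE. Levels are in CPM on the scale of 24 libraries.

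Beside Acta2 (5.03), Mageb16 (4.65) and Bmp5 (3.79), the largest positive differences were those of Mybpc1 and Anxa1. Mybpc1, a myosin binding protein, was at 81.4 and 25.6 CPM in KO NPC, 13.7 and 3.49 CPM in WT NPC and at most 10.8 CPM in knock-in NPC (4.59 ± 0.55, adjusted p = 0.000195). Anxa1, a phospholipid binding protein, had a difference of 3.99 ± 0.60 (adjusted p = 0.00136). Its mESC levels were 1.75 and 8.96 CPM in KO and 3.66 and 11.01 CPM in WT, beside 19.7 to 52.3 CPM in knock-in. In mESC, WT and KO thus lay together for Anxa1 and apart from the knock-in lines. Anxa1 levels in NPC were 8.82 and 18.5 CPM in KO and 0.379 and 1.39 CPM in WT. Those of knock-in NPC ran from 1.16 to 27.5 CPM, with the top of that range in Q111.

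The largest negative differences were in Higd2a, Tmtc1, Ociad2, Lrrc7 and Col4a6. Higd2a, a gene of 2 exons, had a difference of -3.74 ± 0.83 (adjusted p = 0.0233), lost without the library labelled KO mESC 1 (0.174), KO NPC 1 (0.0833) or KO NPC 2 (0.0972), or with Q20 and Q50 left out of the knock-in mean (0.0559). Tmtc1 had -3.05 ± 0.60 (adjusted p = 0.0103), lost without the library labelled KO mESC 1 (0.0811) or KO NPC 2 (0.0805). Ociad2 was at 2.27 and 2.59 CPM in KO NPC and 9.57 and 5.26 CPM in WT NPC (-2.93 ± 0.36, adjusted p = 0.000251). Lrrc7 was at 1.19 CPM in both KO NPC libraries, 2.00 and 3.56 CPM in WT NPC and 5.99 to 24.6 CPM in knock-in NPC (-2.90 ± 0.26, adjusted p = 1.27e-05; edgeR gave 0.263). Col4a6 was at 0.431 and 0.267 CPM in KO NPC, 0.559 and 0.259 CPM in WT NPC and 2.38 to 108.5 CPM in knock-in NPC (-2.85 ± 0.20, adjusted p = 1.71e-06), with the top of that range in Q111.

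Of the Hox genes 11 had a more positive change in KO. Hoxa9 had the largest difference, 3.55 (adjusted p = 8.95e-08), followed by Hoxd8 with 2.67 and Hoxc6 with 2.53. Hoxa10 had 1.90, Hoxd4 1.78, Hoxa7 1.64, Hoxb4 1.64 and Hoxb3 1.59. Hoxd9 had 1.20, Hoxa3 1.06 and Hoxc5 0.71. The knock-in lines differed among themselves in these genes. Hoxa9 in NPC was at 28.4 CPM in Q92, 0.187 in Q20, 0.0471 in Q50 and 0.0690 in Q111, while Hoxb4 was at 7.64 in Q20 and 6.35 in Q92, and Hoxa7 at 7.05 in Q20 and 7.75 in Q92.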

How the results depend on the processing

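For KO NPC against KO mESC, falls numbered 3085 with all 24 libraries in the fit and 1246 among genes averaging at least 5 CPM, against 1999. Leaving out 1 library gave 974 to 1571 rises and 457 to 1412 falls. For the difference from WT, where 0 genes were called, all 24 libraries in the fit gave 16 positive and 7 negative, DESeq2 34 and 42, no filter 1 positive, and leaving out 1 library 0 to 4 positive. For the difference from the knock-in lines, DESeq2 gave 438 positive and 296 negative, edgeR 98 negative, a mean of at least 5 CPM 84 and 66, and leaving out 1 library 122 to 266 positive and 75 to 206 negative. Apart from the replicate blocks and the choice of knock-in lines below, the other settings kept these counts within 1.5 times.

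Of 1160 single-gene alternatives of the first comparison, 1095 kept direction and call, 40 lost the call, 14 gained it and 11 reversed. All reversals were in genes not called, with changes near 0. The Htt change was -0.0627 with DESeq2 and with edgeR, -0.0114 with genes of either table, -0.000889 with median-of-ratios scaling, -0.133 with quantile normalization and -0.485 to 0.538 without 1 library. The Spred1 change was -0.0576 with DESeq2 and edgeR and -0.627 to 0.898 without 1 library, and that of Dnmt1 was -0.829 to 0.188. The Htt difference was -0.912 to 0.112 from WT and -0.991 to 0.0336 from the knock-in lines without 1 library, and the latter was called without the library labelled KO mESC 2 (adjusted p = 0.0359). Causes were not tested, beyond fewer libraries or genes entering these fits.

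With a replicate block there were 2526 rises and 2149 falls from KO mESC to KO NPC, 0 positive and 0 negative differences from WT, and 302 positive and 242 negative from the knock-in lines. Same-numbered libraries shared deviations within a cell type (correlation 0.556 for KO and WT mESC, 0.476 for KO and WT NPC) but little between cell types (0.0846 for KO mESC and KO NPC). A block within each cell type, and the leaving out of knock-in lines, were chosen after seeing the data. That block gave 0 positive and 0 negative differences from WT and 518 and 492 from the knock-in lines. The knock-in mean without Q20 gave 104 negative differences, and the other choices of lines 125 to 202.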

Other observations

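Several genes that only 1 table lists were well measured in KO cells, and no change can be given for them. Beside the pluripotency genes, the mESC table alone lists Tdh, threonine dehydrogenase, on which mESC depend, at 367 and 522 CPM, Triml2 at 169 and 215 CPM, and Sohlh2, a germ cell factor, at 143 and 101 CPM. The NPC table alone lists the neural factor Sox4 at 982 and 138 CPM, Pou3f3 (Brn1) at 336 and 82.3 CPM, Lhfpl3 at 72.7 and 38.0 CPM and Lsamp, a limbic adhesion protein, at 58.1 and 38.7 CPM. Rhob, a small GTPase used by most cells, is listed there at 0 and 59.6 CPM.

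Among called genes, 13 are listed at 0 in both KO NPC libraries and 5 in both KO mESC libraries. The latter include Rbm15b, an RNA-binding protein used by many cells and at 190 and 199 CPM in KO NPC. Folr1, a folate receptor, was at 24.3 and 72.5 CPM in KO mESC and is listed at 0 in both KO NPC libraries.

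In the fit over 8 libraries, 33 genes called in KO had a WT change of opposite sign, and 2 of these were called in WT. Zfp770 was at 50.6 and 40.5 CPM in KO mESC and 15.2 and 27.6 CPM in KO NPC, against 17.7 in both WT mESC libraries and 90.1 and 88.7 CPM in WT NPC. Its change was -1.10 in KO and 2.27 in WT, with a difference of -3.38 that was not called (adjusted p = 0.285). Tigd2, at -1.34 in KO and 1.73 in WT, is the other. Both have 2 exons. The median genomic span of genes was 42.9 kb for those that rose in KO, 27.8 kb for those that fell and 26.1 kb for all tested.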
